A study of Homo sapiens with 14 samples.

Results

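The cytosolic ribosomal proteins were taken as the genes whose symbols are RPL or RPS with a number (RPL3, RPL13A, RPS4X and the like), RPLP0 to RPLP2, or RPSA, leaving out the Y-linked RPS4Y1. Of the 23106 gene symbols counted, 77 met this rule, 46 for the large (60S) subunit and 31 for the small (40S) subunit. Their mRNAs were measured by polyadenylated RNA-seq in 2 human cancer lines, PC3 from a prostate cancer and HCT116 from a colorectal cancer, and the labels name no genetic change in either. PC3 cells were kept in normoxia (21% O2; 4 libraries) or in hypoxia (0.5% O2 for 16 h; 4 libraries), and HCT116 cells in the same 2 conditions with 3 libraries each. The lines were grown in different media, so that line, medium and library set cannot be told apart wherever PC3 and HCT116 are compared. Libraries of a condition are biological replicates by the study's methods. Total counts ran from 71228454 to 123935458 in PC3 and from 133067391 to 150630928 in HCT116.

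Each cytosolic ribosome holds a single copy of nearly every one of these proteins, and a growing cell must therefore make them in matched amounts. Their mRNAs are short and abundant and begin with a run of pyrimidines, the 5' terminal oligopyrimidine (TOP) motif, through which mTOR and the RNA-binding protein LARP1 control their translation. Low oxygen is known to restrain mTOR, in part through DDIT4 (REDD1). Such control acts on translation more than on mRNA level, and RNA-seq of total polyadenylated RNA does not measure translation. In bulk samples such as these, fewer cells of a kind and less RNA per cell cannot be told apart.

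The 30 bases around the annotated transcription start (15 before and 15 after) are shown for 8 members on which the results below turn, to let their start motifs be compared. The first 4 passed the test in hypoxic HCT116 cells (RPL13A, RPSA and RPL3) or had the opposite difference between lines (RPS24), RPL9, RPS3A and RPL41 had the largest differences between lines among the members with a fold, and RPLP1 is a stalk protein. Capitals mark the longest unbroken run of C and T in the window. The sequences are from RefSeq (GRCh38.p14), and each was found unchanged in GRCh37, whose positions are given, as for all genes below. Each window joins the end of the promoter to the first bases of the 5' UTR.
RPL13A, chr19:49990850-49990879, plus strand: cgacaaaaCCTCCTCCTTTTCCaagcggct
RPSA, chr3:39448196-39448225, plus strand: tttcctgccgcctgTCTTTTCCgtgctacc
RPL3, chr22:39715614-39715643, minus strand: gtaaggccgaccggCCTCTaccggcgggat
RPS24, chr10:79793606-79793635, plus strand: cggcgaatcgtggTTCTCTTTTCCTCCTTg
RPL9, chr4:39460528-39460557, minus strand: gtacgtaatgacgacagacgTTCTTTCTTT
RPS3A, chr4:152020765-152020794, plus strand: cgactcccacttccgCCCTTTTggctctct
RPL41, chr12:56510402-56510431, plus strand: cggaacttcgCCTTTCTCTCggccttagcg
RPLP1, chr15:69745142-69745171, plus strand: gtataggcgcgagagCCCCTTTCCTCagct
The run was 16 bases long in RPS24, 14 in RPL13A and 5 in RPL3, and in RPL9 it began at base 6 after the start. Of the 62 members found in the RefSeq table of starts, 50 (80.6%) held the pyrimidine motif CTTTC, the motif CTCTT or the motif CTTTT, which can overlap one another, on the sense strand of this window. The share was 13.3% of all 27305 genes of the table and 7 of 69 (10.1%) mitochondrial ribosomal proteins. On the antisense strand 2 of the 62 members (3.23%) held 1 of the motifs, against 10.1% of all genes. A match describes the letters only.

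The members share other features. Their transcripts had a median length of 748 bases against 2618 for all genes tested, a median coding length of 456 against 1419 bases, and 5 against 9 exons, while GC content was alike (medians of 49.6% in both). Inside 29 of the 77 genes lie 60 small nucleolar RNAs (snoRNAs, guides of rRNA modification), 4 of them in RPL13A. The genes are spread over 21 chromosomes, with 12 on chromosome 19. GENCODE lists 1587 processed or other pseudogenes of the members, from 1 (RPLP2) to 133 (RPL21) each, and reads that fit a gene and its copies could be lost or split in counting.

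Before the results, the labels and 4 libraries need a description. All 5 hypoxia markers examined (CA9, NDRG1, ANKRD37, PDK1 and VEGFA) rose in hypoxia in both lines. NDRG1, a stress-induced gene, rose by 2.87 on the log2 scale in PC3 (adjusted p = 0.000134, edgeR) and by 2.78 in HCT116 (adjusted p = 1.61e-07). The intestinal factor CDX2 had 0 counts in all PC3 libraries and 2164 to 2845 in HCT116, and the prostate factor HOXB13 5653 to 11214 in PC3 and 1231 to 1519 in HCT116. Other defining markers were absent: KLK3 and CDX1 had 0 counts in every library and VIL1 0 to 8. The colon marker CEACAM5 was higher in PC3, with a mean of 15.3 CPM in normoxia against 0.00734 in HCT116. CPM is the count of a gene relative to the library size, which was scaled by edgeR's TMM factors over the 14 libraries.

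Hypoxia replicate 4 of PC3, which also had the fewest counts, stood apart from the other hypoxic PC3 libraries. All 75 members with counts enough to compare were higher in it, by a median of 0.61 on the log2 scale, from 0.20 (RPL11) to 0.92 (RPL27). Both PC3 libraries numbered 1 were low. In normoxia replicate 1 all 75 members were lower than in the other normoxic libraries, by a median of -0.31, from -0.48 (RPSA) to -0.10 (RPL41). In hypoxia replicate 1 all 75 were lower than in the other hypoxic ones, by a median of -0.48, from -0.82 (RPSA) to -0.25 (RPL11). Over all genes too, normoxia replicate 1 differed more from the other normoxic PC3 libraries (chi-square per gene of 117 to 205) than these did from each other (12.5 to 43.0). In HCT116, normoxia replicate 3 stood apart from the other normoxic libraries, with 72 of 75 members higher in it and a median of 0.27. The median was 0.40 for the small and 0.25 for the large subunit, and single members ran from -0.06 in RPLP0 to 0.94 in RPL27 and 1.00 in RPS15A. The main counts and medians of the members are given below with and without these libraries.

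**Figure D1:**
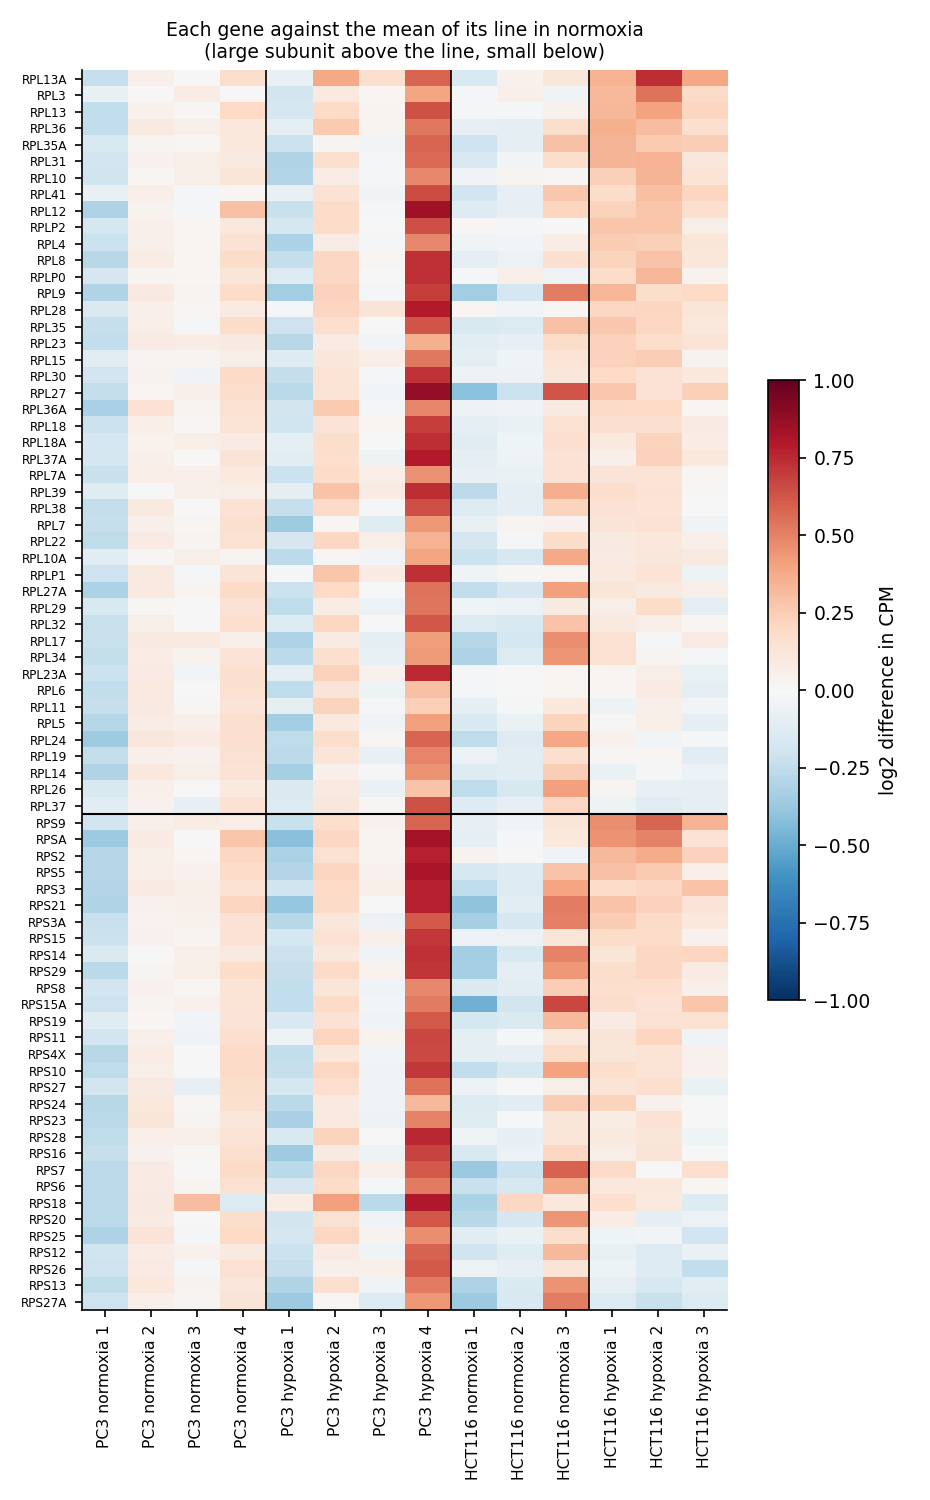
Colour gives the log2 difference in CPM of each of 75 members (vertical axis) in each of the 14 libraries (horizontal axis) from the mean of the normoxic libraries of the same line, with the colour scale held at -1 and 1. Large subunit genes lie above the black line and small subunit genes below it, and the columns of PC3 hypoxia replicate 4 and HCT116 normoxia replicate 3 are red for nearly all members.

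The first question was how much of the mRNA these genes took. Their summed counts made up 3.02%, 3.67%, 3.56% and 3.91% of all counts in normoxic PC3 replicates 1 to 4 and 2.89%, 3.66%, 3.35% and 4.76% in the hypoxic ones. The 2 conditions overlapped, and the highest value was that of hypoxia replicate 4. In HCT116 the share was 6.99%, 7.33% and 8.68% in normoxia and 8.12%, 8.18% and 7.61% in hypoxia. Here too the conditions overlapped, since normoxia replicate 3 had the highest share of all 14 libraries. Counting error was small beside this spread, with 95% Wilson intervals of 0.00633 to 0.00989 percentage points in width (counting error only).

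The mean share was 3.54% ± 0.379 (SD, n = 4) in normoxic and 3.66% ± 0.796 (SD, n = 4) in hypoxic PC3 cells, a difference of 0.125 percentage points. Without hypoxia replicate 4 the difference turned to -0.240 points, and without normoxia replicate 1 to -0.0491, while without hypoxia replicate 1 it was 0.383. The same-numbered pairs differed by -0.126, -0.0146, -0.206 and 0.848 points. In HCT116 the means were 7.66% ± 0.895 (SD, n = 3) and 7.97% ± 0.316 (SD, n = 3), a difference of 0.305 points that became 0.812 without normoxia replicate 3 and -0.0333 without normoxia replicate 1. Neither difference over all libraries exceeded the spread between replicates. Without normoxia replicate 3 the HCT116 conditions did not overlap, but leaving out the normoxic library with the highest share raises the difference by construction. Every HCT116 library, from 6.99% up, lay above every PC3 library, the highest of which had 4.76%.

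The balance of the subunits was compared next. The ratio of large to small subunit counts was 1.59 ± 0.0340 (SD, n = 4) in normoxic and 1.59 ± 0.0333 (SD, n = 4) in hypoxic PC3 cells. In HCT116 it was 1.57, 1.53 and 1.36 in normoxia, where replicate 3 was the lowest, and 1.47, 1.51 and 1.47 in hypoxia. The HCT116 means of 1.49 ± 0.109 and 1.48 ± 0.0239 (SD, n = 3 each) differed by -0.00346 and the PC3 means by 0.00336. Both differences were smaller than 1 SD. The HCT116 value rested on normoxia replicate 3, without which both normoxic ratios lay above all 3 hypoxic ratios and the difference was -0.0659.

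**Figure D2:**
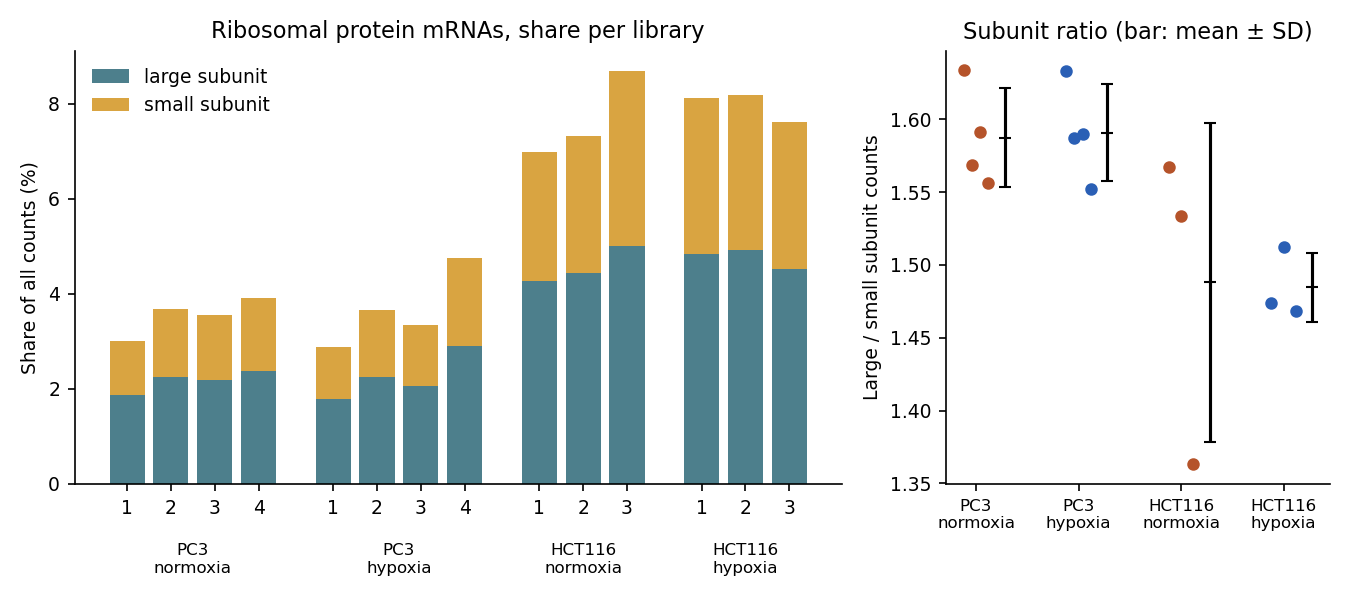
The left panel stacks the large and small subunit share of all counts (%) for each library, by group and replicate number, and the right panel gives the ratio of large to small subunit counts per library with the group mean ± SD. HCT116 libraries lie between 6.99% and 8.68% and PC3 libraries between 2.89% and 4.76%, while the ratio stays between 1.36 and 1.63.

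Per kilobase of transcript, the median member in normoxic PC3 cells had 445 CPM per kilobase in the large and 446 in the small subunit, and in normoxic HCT116 cells 1179 and 1305. The order of levels was similar in both lines, with a Spearman correlation across the 77 members of 0.73 (a description, since the members share libraries). Averaged over the 14 libraries, the most abundant were RPS24 (2439 CPM per kilobase), a protein of the 40S subunit needed for its assembly, RPL8 (2418), a core protein of the 60S subunit, and the stalk proteins RPLP0 (2117) and RPLP1 (2020). The order differed by line: RPS24 led in normoxic PC3 cells with 2965 CPM per kilobase, but had 1642 in normoxic HCT116 cells, where RPLP1 led with 3072. Low levels were found for RPL21 (0.116), RPS18 (41.5) and RPL14 (111). The annotated RPL14 transcript used for scaling is long, at 7072 bases, so its level per kilobase is uncertain.

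RPL21 and RPS18 had far fewer counts than most of their partners in the ribosome. RPL21, with 133 annotated pseudogenes, had 0 to 4 counts in PC3 and 17 to 27 in HCT116. RPS18 had 572 to 988 counts in PC3 and 5051 to 7087 in HCT116. In contrast, 68 of the 77 members exceeded 100 CPM in every library. Neither the part of multiply placed reads nor that of the gene models in these low values was tested. RPL21 passed the filter on low counts in HCT116 and in the fit over both lines, but not in PC3.

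In normoxia nearly every member was higher in HCT116 than in PC3. Of 76 members tested, 70 were called higher (92.1%, against 38.9% of all 15493 genes tested) and 1 lower (against 42.4%), by edgeR's quasi-likelihood test at an adjusted p under 0.05. The median difference was 1.41 on the log2 scale, against -0.05 for all genes. It was 1.33 for the large subunit, with 42 of 46 higher, and 1.49 for the small subunit, with 28 of 30 higher. Without HCT116 normoxia replicate 3, 67 were called higher (37.1% of all genes) and the median was 1.25. Without PC3 normoxia replicate 1 these were 68 (38.2% of all genes) and 1.36.

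RPL9, a 60S protein whose gene lies at chr4:39454207-39460551, had 56.1, 73.3, 70.1 and 78.3 CPM in normoxic PC3 replicates and 479, 542 and 867 in HCT116. All HCT116 libraries lay above all PC3 libraries, with replicate 3 the highest, and the log2 difference was 3.18 (SE 0.23, adjusted p = 3.44e-09). RPS3A, a 40S protein (chr4:152020776-152025794), had 185, 223, 223 and 239.9 CPM in PC3 and 1432, 1609 and 2557 in HCT116. It was higher by 3.10 (SE 0.21, adjusted p = 1.66e-09) with no overlap. RPL41, the smallest protein of the ribosome with a coding length of 75 bases (chr12:56510374-56511751), had 81.2, 89.5, 84.4 and 86.6 CPM in PC3 and 604, 651 and 833 in HCT116. The difference of 3.03 (SE 0.15, adjusted p = 6.09e-11) far exceeded the spread in either line. RPL21 was called higher too, from the few counts given above, and no fold is given for it.

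RPS24 (chr10:79793518-79816571) was the only member of the 76 tested that was called lower in HCT116. It had 1414, 1848, 1733 and 1921 CPM in PC3 and 863, 879 and 1131 in HCT116. All 3 HCT116 libraries lay under all 4 PC3 libraries, and the difference was -0.85 (SE 0.15, adjusted p = 6.01e-05). It was, per kilobase, the most abundant member in PC3. The 5 members not called in either direction were RPL22 (-0.14, adjusted p = 0.291), RPL28 (-0.07, 0.643), RPL30 (0.02, 0.935), RPL37 (0.08, 0.619) and RPS25 (0.13, 0.402). They were named after their values were seen, apart from RPL22.

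**Figure D3:**
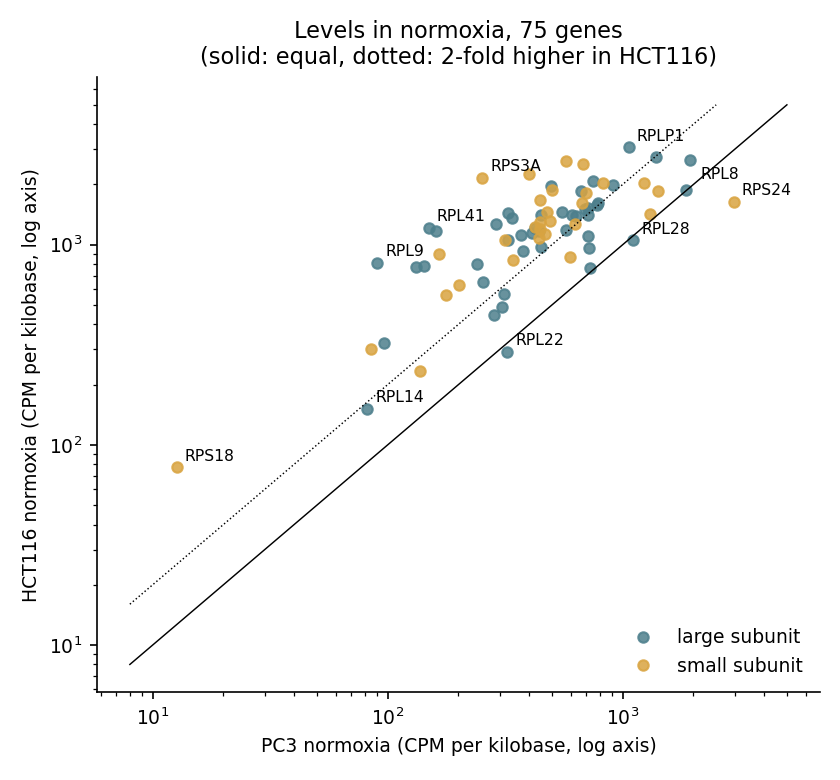
Each point is 1 of 75 members, with its mean level in normoxic PC3 cells (horizontal) and HCT116 cells (vertical) in CPM per kilobase on log axes, coloured by subunit. Most points lie above the solid line of equality, RPL9, RPS3A and RPL41 lie far above it, and RPS24 lies under it.

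The line difference was set beside features of the genes. Across 75 members the Spearman correlation of the line difference was 0.18 with the number of annotated pseudogenes, -0.05 with GC content and -0.09 with transcript length (descriptions, the members sharing the same libraries). The median difference was 1.30 for the 34 members with at most 10 pseudogenes and 1.50 for the 24 with more than 20. Correlations within the members cannot show a trend that all of them share. Fitted trends with length and GC content put the members at medians of -0.12 to -0.06 (log2) in normoxic PC3 libraries. In normoxic HCT116 libraries these medians were 0.05 to 0.20. Their part in the line difference was tested only by the offsets described in the closing section.

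The study's main comparison was hypoxia against normoxia in each line. In HCT116, 11 of 76 members rose (14.5%, against 14.6% of all 14120 genes tested) and 0 fell (against 11.3%). The share of risers was thus at the background, and the sizes were modest, between 0.20 and 0.51 on the log2 scale. At an unadjusted p under 0.05 there were 19 (against 38.7% of all genes), and DESeq2 called 13, all higher (15% of all genes). The log2 fold change was above 0 in 65 of the 76 members (50.3% of all genes), with a median of 0.12. The 8 large subunit members that rose were RPL13A, RPL3, RPL13, RPL36, RPL10, RPLP2, RPL4 and RPL28, of 46 tested. The 3 small subunit members were RPS9, RPSA and RPS2, of 30 tested. The conditions did not overlap for 10 of the 11, RPL36 being the exception (no overlap upward in 20.3% of all genes).

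RPL13A, a 60S protein also known for silencing inflammatory mRNAs outside the ribosome (chr19:49990767-49996314), had 357, 408 and 429 CPM in normoxia and 505, 663 and 519.6 in hypoxia. All hypoxic libraries were above all normoxic ones, by 0.51 (SE 0.11, adjusted p = 0.00579, edgeR). RPS9, a 40S protein needed early in subunit assembly (chr19:54704677-54752862), had 729, 753 and 839 CPM in normoxia and 1064, 1158 and 980.4 in hypoxia. It rose by 0.48 (SE 0.08, adjusted p = 0.00206), again without overlap.

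RPSA, the 40S protein also described as a laminin receptor (chr3:39448207-39467746), had 2106, 2233 and 2423 CPM in normoxia and 3076, 3173 and 2492 in hypoxia. It rose by 0.39 (SE 0.10, adjusted p = 0.0142), though hypoxia replicate 3 lay close to normoxia replicate 3. Without hypoxia replicate 1 or 2 its adjusted p was 0.0578 in each case. A processed copy counted separately, RPSAP58, had 75.9 CPM on average, 4.54% of the level of RPSA, and rose by 0.42 (adjusted p = 0.0132). RPL3, a 60S protein that reaches towards the peptidyl transferase centre (chr22:39708887-39716394), had 1871, 1957 and 1839.8 CPM in normoxia and 2369, 2749.8 and 2162 in hypoxia. It rose by 0.38 (SE 0.09, adjusted p = 0.00872), without overlap.

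The other 7 rose by 0.20 (RPL28, adjusted p = 0.038) to 0.34 (RPL13, adjusted p = 0.00579). RPL36 shares its strand and locus with HSD11B1L, and its count is uncertain for that reason. Of the 29 members that host snoRNAs 8 rose (27.6%), and of the 47 without 3 did (6.38%), against the 14.6% of all genes. Without normoxia replicate 3 these counts were 21 (72.4%) and 28 (59.6%), against 13% of all genes. The difference between these 2 groups was not tested.

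**Figure D4:**
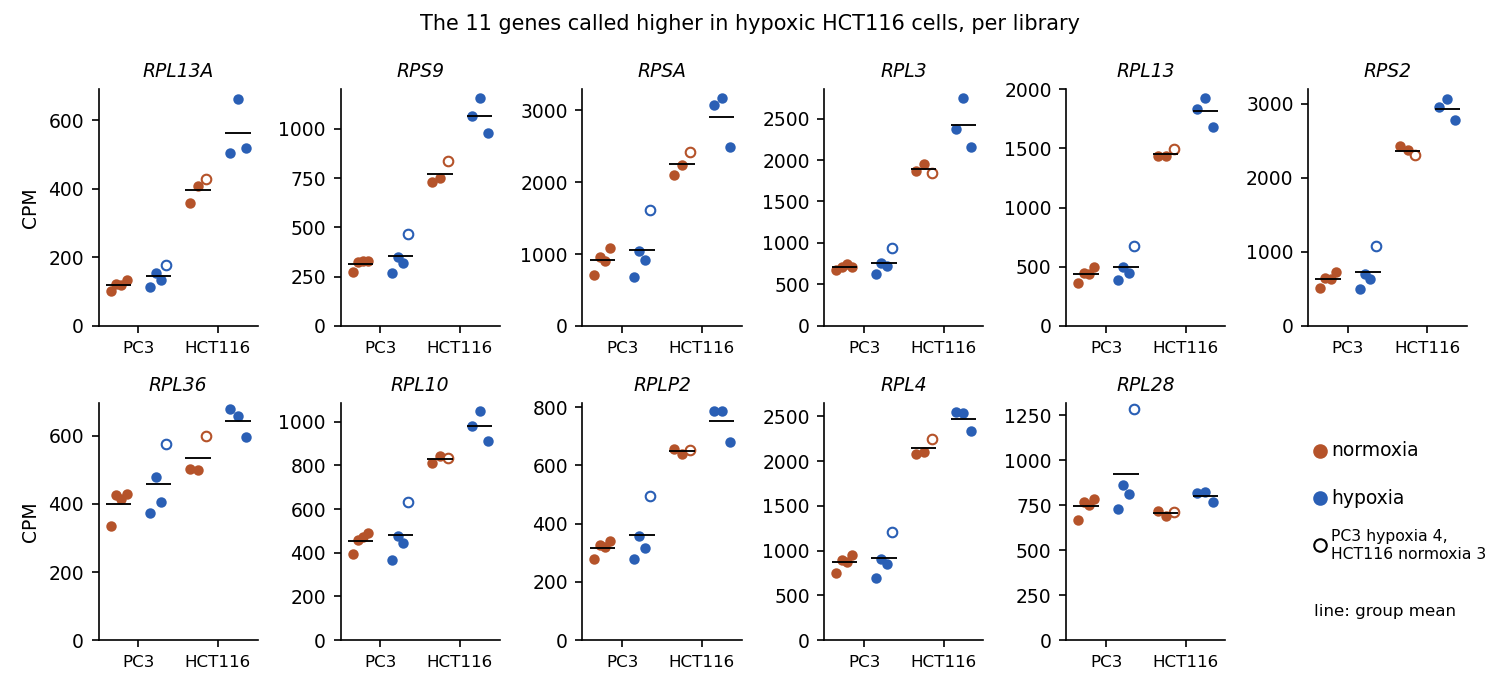
Each panel gives the CPM of 1 of the 11 genes called higher in hypoxic HCT116 cells, for each library of both lines, with normoxia in brown, hypoxia in blue, and a bar at the group mean. Open circles mark PC3 hypoxia replicate 4 and HCT116 normoxia replicate 3, the former being the highest hypoxic PC3 value in all 11 panels.

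The HCT116 count depended on normoxia replicate 3. This library was set apart because 72 of 75 members were higher in it. Leaving it out therefore raises most fold changes by construction, and the calls without it are no independent support. Without that library, 49 of 76 members were called higher (64.5%, against 13% of all genes). A log2 fold change above 0 was then found in 75 of 76 (50.1% of all genes), with a median of 0.23. Among the 49 were 30 of 46 large and 19 of 30 small subunit members, and all 11 given above. Without normoxia replicate 1 the count was 6 (10.5% of all genes), and 44 of 76 members were above 0 (48.6% of all genes). Fitted trends with transcript length and GC content raised the members by 0.20 on the log2 scale in normoxia replicate 3, against 0.05 and 0.06 in the other normoxic libraries and 0.09 to 0.12 in the hypoxic ones. Across 75 members the hypoxia fold change had a Spearman correlation with GC content of 0.42 in HCT116, or 0.16 without normoxia replicate 3, and of 0.51 in PC3 (descriptions over genes of the same libraries). The part of this trend in the result was tested only by the offsets described in the closing section.

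In PC3, 0 of 75 members were called higher (against 6.03% of all 14309 genes tested) and 0 lower (against 5.29%) by edgeR. At an unadjusted p under 0.05 there were 0 members, against 3969 of all 14309 genes. DESeq2 called 0 members, against 1392 higher and 1209 lower of all 14309 genes. By DESeq2, 1 member had an unadjusted p under 0.05, against 4237 of all genes. The conditions overlapped in every member (no overlap upward in 9.62% and downward in 11.3% of all genes). The log2 fold change was above 0 in 75 of 75 members (50.4% of all genes), from 0.02 (RPS27A) to 0.32 (RPL28), with a median of 0.17. This direction rested on hypoxia replicate 4. Without it 31 of 75 were above 0 (49.4% of all genes) and the median was -0.01. Without normoxia replicate 1, 67 of 75 were above 0 (51.5% of all genes), with a median of 0.10, and without hypoxia replicate 1 all 75 were (48.5% of all genes), with a median of 0.26 and 0 called in either case. Within the same-numbered pairs, hypoxia was higher in 37, 67, 24 and 75 of the 75 members.

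RPL28, a 60S protein, had 669, 769, 749.8 and 783 CPM in normoxic and 731, 861, 811 and 1286 in hypoxic PC3 cells, where replicate 4 gave most of the difference (0.32, SE 0.16, adjusted p = 0.227; 0.28 without normoxia replicate 1). RPSA had 704, 954, 906 and 1091 CPM in normoxia and 674, 1041, 919 and 1609 in hypoxia, and the conditions overlapped. RPL13A had 102, 123, 119 and 134 CPM in normoxia and 113, 155, 133 and 178 in hypoxia. Each hypoxic library of RPL13A was higher than the normoxic library of the same number, as was so for 16 of the 75 members (21.3%), RPL22, RPL28 and RPLP1 among them, against 25.0% of all genes. The replicate number was also used as a block, though the pairing by number was clear mainly for replicate 1. With this block RPL13A was the single member called (0.27, SE 0.06, adjusted p = 0.0178), against 14.9% of all genes called higher. With offsets for length and GC content added to the block, RPL22 and RPLP1 were among 8 members called higher, against 17.3% of all genes.

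**Figure D5:**
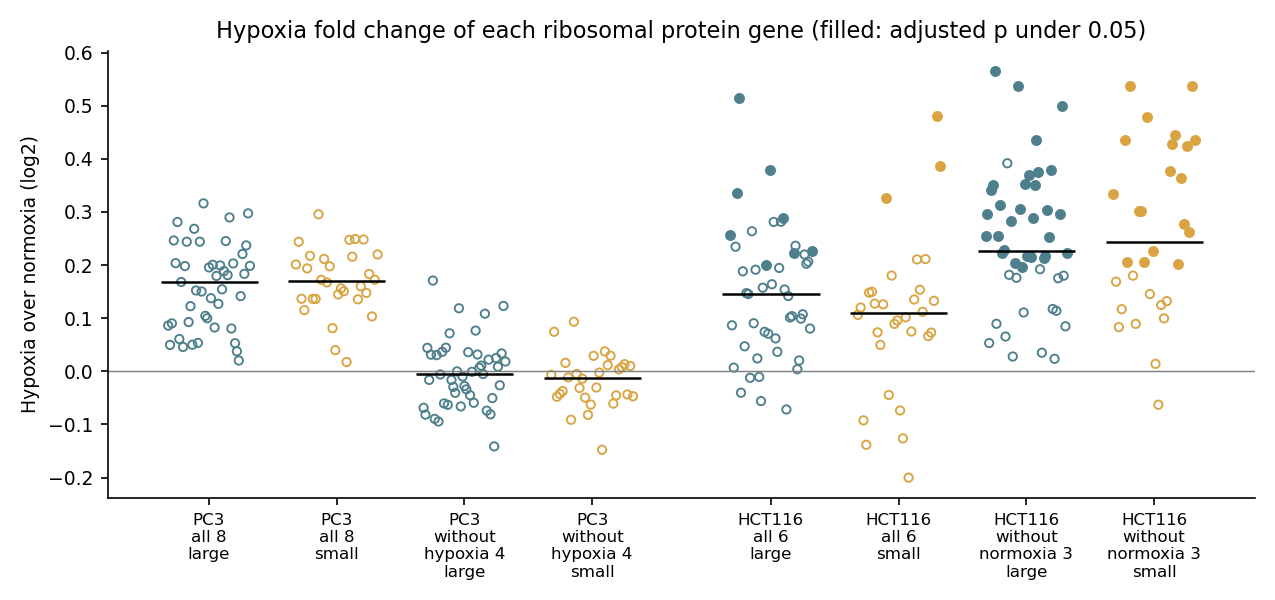
Each point is the log2 fold change of hypoxia over normoxia of 1 member, by line, by subunit, and with or without PC3 hypoxia replicate 4 or HCT116 normoxia replicate 3, with filled points where the adjusted p was under 0.05 and a bar at the median. In PC3 the medians move from 0.17 to about 0 without hypoxia replicate 4, and in HCT116 the count of filled points goes from 11 to 49 without normoxia replicate 3.

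Whether hypoxia acted differently in the lines was tested as the interaction of line and oxygen over all 14 libraries. Of 76 members, 0 were called in either direction (against 1.31% higher in HCT116 and 1.01% lower among all 15493 genes). At an unadjusted p under 0.05 there were 0 members, against 2481 of all genes. DESeq2 called 0 members, against 504 higher and 470 lower of all genes. The differences of the log2 fold changes, HCT116 minus PC3, ran from -0.29 (RPS26) to 0.30 (RPS9), with a median of -0.06 and a median SE of 0.22. The lowest adjusted p was 0.477, for RPL3. The median was 0.02 without PC3 normoxia replicate 1, -0.17 without PC3 hypoxia replicate 1, 0.13 without PC3 hypoxia replicate 4 and 0.08 without HCT116 normoxia replicate 3. With such errors a difference of the size seen could not be told from 0.

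The members with known roles of their own were followed in each line. RPLP0, RPLP1 and RPLP2 form the acidic stalk that recruits translation factors to the 60S subunit. In HCT116, RPLP2 rose by 0.23 (adjusted p = 0.046), a call that held in 8 of the 18 settings tried, while the fold change was 0.21 for RPLP0 (adjusted p = 0.0819) and 0.08 for RPLP1 (adjusted p = 0.436). RPLP1 had 1332, 1381 and 1388 CPM in normoxia and 1463, 1506 and 1316 in hypoxia, and its conditions overlapped. In PC3 the fold changes of RPLP0, RPLP1 and RPLP2 were 0.24, 0.30 and 0.20, none called, and without hypoxia replicate 4 they were 0.03, 0.12 and 0.02. Without normoxia replicate 1 they were 0.19, 0.24 and 0.15. RPLP1 was higher in hypoxia in each same-numbered PC3 pair, with an adjusted p of 0.0582 with the replicate block. All 3 were higher in HCT116 than in PC3 in normoxia, by 0.99, 1.54 and 1.04.

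RPL5 and RPL11, which bind MDM2 when ribosome assembly fails, had hypoxia fold changes near 0, at 0.00 and 0.01 in HCT116 and 0.05 and 0.09 in PC3, none called. Without HCT116 normoxia replicate 3 they were 0.12 and 0.05, and without PC3 hypoxia replicate 4 they were -0.08 and 0.04, or -0.03 and 0.03 without PC3 normoxia replicate 1. RPS6, the substrate of the S6 kinases, had fold changes of 0.07 in HCT116 and 0.15 in PC3, neither called. Without HCT116 normoxia replicate 3 its change was 0.28 and was called (adjusted p = 0.00435), and it was 0.01 without PC3 hypoxia replicate 4 and 0.07 without PC3 normoxia replicate 1. RPL22, a 60S protein that can be lost without stopping ribosome assembly, had fold changes of 0.09 in HCT116 and 0.12 in PC3, none called, or 0.18 without HCT116 normoxia replicate 3, 0.04 without PC3 hypoxia replicate 4 and 0.05 without PC3 normoxia replicate 1. RPS27A is made as a fusion with ubiquitin. It had 709, 819 and 1302 CPM in normoxic and 829.9, 779 and 829.6 in hypoxic HCT116 cells, where the high normoxic value was that of replicate 3. Its fold change of -0.20 was the lowest of the members in HCT116 (adjusted p = 0.431), and without that library it was 0.10 (adjusted p = 0.346). In PC3 it was 0.02, or -0.15 without hypoxia replicate 4 and -0.04 without normoxia replicate 1.

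Of 6 paralogs of members tested between the lines in normoxia, 4 were called higher in HCT116 and 1 lower (38.9% and 42.4% of all genes). RPL39L, the paralog of RPL39 known from male germ cells and some tumours, had 1895 to 3133 counts in PC3 libraries and 0 to 7 in HCT116. RPL22L1 had 20.2 ± 1.88 CPM in normoxic PC3 (SD, n = 4) and 298 ± 141 in normoxic HCT116 cells (SD, n = 3), a difference of 3.89 (adjusted p = 3.61e-10), while RPL22 itself was not called. RPS27L was higher in HCT116 by 2.91 (adjusted p = 4.12e-10). In hypoxia 0 of 5 paralogs tested in HCT116 and 0 of 6 in PC3 were called, against 25.9% and 11.3% of all genes in either direction. FAU and GNB2L1 (RACK1), ribosomal proteins with other names, were higher in HCT116 in normoxia, by 0.84 (adjusted p = 0.000115) and 0.66 (adjusted p = 0.000964), and were not called in hypoxia in either line.

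Further lists hold genes that work with these proteins or share their start motif. Among 9 noncoding snoRNA hosts, many of whose spliced RNAs also begin with TOP motifs, 4 fell and 0 rose in HCT116, with a median of -0.39 (11.3% of all genes fell there, with a median of 0.00). In PC3 3 of the 9 fell, with a median of -0.32 (5.29% and 0.00 over all genes). The HCT116 median depended on normoxia replicate 3. GAS5 had 49.1, 60.8 and 99.0 CPM in normoxic HCT116 replicates 1 to 3 and 44.7, 53.3 and 60.6 in hypoxic ones. SNHG1 was lower in every hypoxic HCT116 library, with 81.9, 76.2 and 83.2 CPM against 112, 120 and 144. The HCT116 median without normoxia replicate 3 is not given here. SNHG1 fell by 0.62 in HCT116 (adjusted p = 0.000778) and by 0.55 in PC3 (adjusted p = 0.0253), and SNHG12 by 0.94 and 0.57. Of 35 genes of ribosome assembly and rRNA synthesis 7 fell and 2 rose in HCT116 (median -0.14), and 4 fell and 0 rose in PC3 (median -0.17). Over all genes 11.3% fell and 14.6% rose in HCT116, and 5.29% fell in PC3. With the replicate block 14 of the 35 fell in PC3, against 13.6% of all genes. Hypoxia replicate 4 of PC3 stood apart in this list too, with genes going both ways. In it NCL had 1172 CPM, against 1517, 1773 and 1840 in hypoxia replicates 1 to 3. FBL had 209 CPM there, against 108, 161 and 152. The counts and medians of this list without PC3 hypoxia replicate 4 or HCT116 normoxia replicate 3 are not given here. NMD3, the 60S export adaptor, fell by 0.30 in HCT116 and 0.46 in PC3, and NOP58, a core protein of box C/D snoRNPs, by 0.26 and 0.44. FBL, the rRNA methyltransferase, rose by 0.28 in HCT116.

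Of 75 mitochondrial ribosomal proteins, which serve the separate ribosome of mitochondria, 9 fell and 0 rose in HCT116 (median -0.10), and these 9 are near the 11.3% of all genes that fell. Without normoxia replicate 3 the count was 4 in each direction (13% of all genes rose and 10.4% fell). In PC3, MRPS6 rose by 0.99 (adjusted p = 0.000719) and 0 of the list fell (8 with the replicate block, against 13.6% of all genes). The fold change of MRPS6 differed between the lines by -0.98 (adjusted p = 0.00345). Of 18 translation factors and other proteins made from 5' TOP mRNAs, 4 rose in HCT116 (EEF2, EIF4B, EEF1G and PABPC1, by 0.24 to 0.32), NACA, which binds nascent chains, fell by 0.24, and 0 were called in PC3 (medians of 0.09 and 0.07). Over all genes 14.6% rose and 11.3% fell in HCT116, and 6.03% and 5.29% in PC3. The PC3 median of 0.07 depended on hypoxia replicate 4. There EEF1A1 had 5581 CPM, against 3456, 4084 and 3625 in hypoxia replicates 1 to 3. EIF4A2 went the other way, with 166 CPM against 216, 198 and 209. The PC3 median without this library is not given here. Of 18 regulators of these mRNAs, 3 rose and 2 fell in HCT116 (median 0.04), and 2 rose and 0 fell in PC3 (median 0.04; 6.03% and 5.29% of all genes). DDIT4, which restrains mTOR, rose by 4.08 in HCT116 and 1.50 in PC3, and the lines differed by 2.57 (adjusted p = 0.00476). In the same list LARP1B and LARP4, relatives of LARP1, fell in HCT116 by 0.31 and 0.27. EIF4EBP3 and EIF4EBP2, which block cap-dependent initiation, rose in HCT116 by 0.53 and 0.23, and RPTOR, the mTORC1 scaffold, rose in PC3 by 0.21.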

How the data were processed

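Polyadenylated RNA of 14 cultures was sequenced, with ERCC spike-in. The authors aligned the reads with HISAT2 (2.05 in the submitters' processing notes) to ERCC and then to GRCh37, and deposited, without normalisation, the count that HTSeq (0.5.4p3) gave each RefSeq gene in intersection-strict mode. Strandedness and the RefSeq release are not given in the sources used here. Spike-in reads, which the study used for scaling, are not used here, so a change common to all mRNAs would not be seen.

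The deposited counts were tested with edgeR 4.0.16 (R 4.3.3): TMM scaling, filterByExpr, the two-sided quasi-likelihood test over all genes and Benjamini-Hochberg adjustment at 0.05, within each line by condition, and over the 14 libraries by group for the line contrast and the interaction. The SE of a log2 fold change was derived from it and from F. Shares and ratios were given no p. No pair of libraries of the same line and condition was a duplicate (chi-square per gene of 12.5 or more), and other pairs were not compared. Transcript lengths, GC content, positions, snoRNAs and pseudogenes came from GENCODE v44 on GRCh37, and starts from RefSeq (GRCh38.p14). Length and GC content were found for 89.0% of the genes tested.

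By the labels' replicate numbers PC3 libraries were taken as pairs. What set same-numbered libraries apart from their groups correlated at 0.831, 0.472, 0.314 and 0.408 for replicates 1 to 4, across 12311 genes. Libraries of different numbers reached 0.346 (normoxia 4 with hypoxia 2) and 0.296 (normoxia 2 with hypoxia 3). The pairing was thus clear mainly for replicate 1. In simulated data with 200 genes changed by a fold of 2, the edgeR test recovered 90.5% in PC3 (14226 genes) and 99.5% in HCT116 (14035 genes). The members changed less in hypoxia, by at most 0.32 in PC3 and 0.51 in HCT116 on the log2 scale. No shift common to the genes of a library was simulated. These rates therefore do not tell how often changes of the members' size would be found.

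Members and gene lists were chosen with earlier results of these data known. Members were named for being in the top 4 of the called, non-overlapping changes of a line each way, the 4 largest interaction or line differences each way, the 4 with most or fewest CPM per kilobase, the members under the low-count filter, or RPLP0 to RPLP2, RPL5, RPL11, RPL22, RPS6, RPS27A and RPSA; list genes past the threshold could be named. Others were named after their values were seen. Values of 1 member and of some list and marker genes are not reported here.

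The alternatives tried were scaling by total counts, by upper quartiles or by medians of ratios, DESeq2 1.42.0, no filter, at least 10 counts in every library, offsets for length and GC content, the replicate block with and without them, a change of at least 0.5, 1 fit over both lines, and each library left out. Settings that joined offsets or the block with a left-out library were added after seeing the data.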

Additional observations from a re-analysis of the deposited data

Results flagged for a closer look

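Of 48 groups of values examined, 1 held a library far from the others of its group, where about 1 in 20, or 2.4, would be expected by chance. RPS9 had 274 CPM in PC3 normoxia replicate 1, against 324 to 329.7 CPM in the other 3 normoxic libraries. This was not particular to RPS9. All 75 members compared were lower in that library, by a median of -0.31 on the log2 scale, and RPS9 by -0.26.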

How the results depend on the processing

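In PC3, 0 members were called under the scalings, filters, offsets, DESeq2 and each left-out library, while the replicate block gave 1 higher, the block with offsets 8 (17.3% of all genes) and the block without both libraries of replicate 4 (chosen after seeing the data) 11 higher and 2 lower (25.6% and 23.6% of all genes). In this last fit RPS27A turned to -0.11 (adjusted p = 0.011). In HCT116 the 11 higher members became 6 with total counts only, with 1 lower (9.11% and 22.3% of all genes). They became 22 with offsets (15.6% of all genes) and 1 in a single fit over both lines (6.05%). With a change of at least 0.5 there was 1, against 706 of all 14120 genes. With offsets and without normoxia replicate 3, a setting chosen after seeing the data, there were 49 (14% of all genes). Leaving out 1 HCT116 library at a time gave 5 to 49 (9.65% to 13% of all genes), with 5 without hypoxia replicate 1 or 2 and 6 without normoxia replicate 1 or 2. The HCT116 replicate numbers share only a number (correlations of 0.092, 0.388 and -0.059), and the block gave 7 there (14.9% of all genes), or 30 with offsets (18.7%). RPL13A was called under all 17 HCT116 alternatives. The interaction gave 0 under every alternative run, the block included. Between lines, 4 members were lower with offsets in place of 1 (44.1% and 42.4% of all genes), and RPL8 reversed from 0.45 to -0.36 (adjusted p = 0.0328). Total-count scaling moved the median of all genes by -0.11 in PC3, -0.09 in HCT116 and -0.08 between lines, and that of the members to 0.06 in PC3 and 0.03 in HCT116. The cause of these changes was not tested. Of the 77 members, 68 exceeded 100 CPM in every library, while RPL21 and RPS18 had few counts. Whether depth or the spread between 3 or 4 libraries limited the calls was not tested.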
